A study of Mus musculus with 10 samples.

Results

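The comparison described here set mouse embryonic stem cells made to overexpress Tet3 against control cells of the same strain background, C57BL/6. Both were grown for 7 days as embryoid bodies (EB in the sample titles), in medium with fetal bovine serum. This setting does not favour neural differentiation. The day 7 libraries were 2 of the 10 libraries of the series, 1 per condition, so every difference below compares 2 libraries and has no replicate check and no test. The deposited table lists 21937 gene symbols in RPKM, reads per kilobase of transcript and per 1000000 reads. Of these, 12027 reached 1 RPKM in at least 1 of the day 7 libraries and were compared. A difference is the log2 of RPKM plus 0.5 with Tet3 overexpression minus the same in the control, and a gene is counted as higher or lower where it reached 2-fold (1 log2 unit). Where a pair of values is joined by "against", the control comes before the Tet3-overexpressing library, and the day is 7 unless another is named. The other libraries were the same control and Tet3-overexpressing cells after 4 days in serum, and wild-type cells, Tet3 knockout (KO) cells and Tet3 KO cells with Dkk after 6 and 10 days of SFEB culture, which leads to neuroectoderm. The labels attach a note on the making of the Tet3 KO line, by Cre excision of a floxed exon, to all samples. They do not say whether the serum-culture cells came from such a line, how Tet3 was overexpressed, or whether a pool or a clone was used.

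Tet3 belongs to the TET family of dioxygenases, which oxidise 5-methylcytosine in DNA to 5-hydroxymethylcytosine and further products and so open a route to demethylation. Dnmt enzymes act in the other direction and write the methyl mark. Stem cells that leave pluripotency in serum commonly form mesoderm, endoderm, blood and vascular cells, while neural cells form more readily when serum and its signals are absent.

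Of the 12027 genes, 829 (6.89%) were at least 2-fold higher and 1373 (11.4%) at least 2-fold lower in the Tet3-overexpressing library on day 7. These shares are the scale for the day 7 counts of each gene list below. The median difference over all genes compared was -0.04. A gene that passed the filter in 1 library only had to differ to some degree; 735 genes passed only in the control and 546 only with Tet3. Globins, cardiovascular and mesenchymal genes and posterior Hox genes lay on the lower side, and pluripotency, neuronal and germline genes on the higher side. At 4-fold the counts were 116 higher and 403 lower, and at 8-fold 9 higher and 121 lower. Where only genes at 5 RPKM or more in either library were compared, 454 were higher and 884 lower. Where 1 RPKM was asked of both libraries, 503 were higher and 884 lower. The counting error of single genes was small beside most of these differences: with reads estimated from the table, the 95% interval of the ratio excluded equality for 804 of 825 higher genes and 1357 of 1369 lower genes with a known length. These genes had been chosen for a 2-fold difference in the same 2 libraries, which favours that outcome, so the counts are no separate support. The intervals cover counting error only, and the spread between cultures is unknown.

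**Figure D1:**
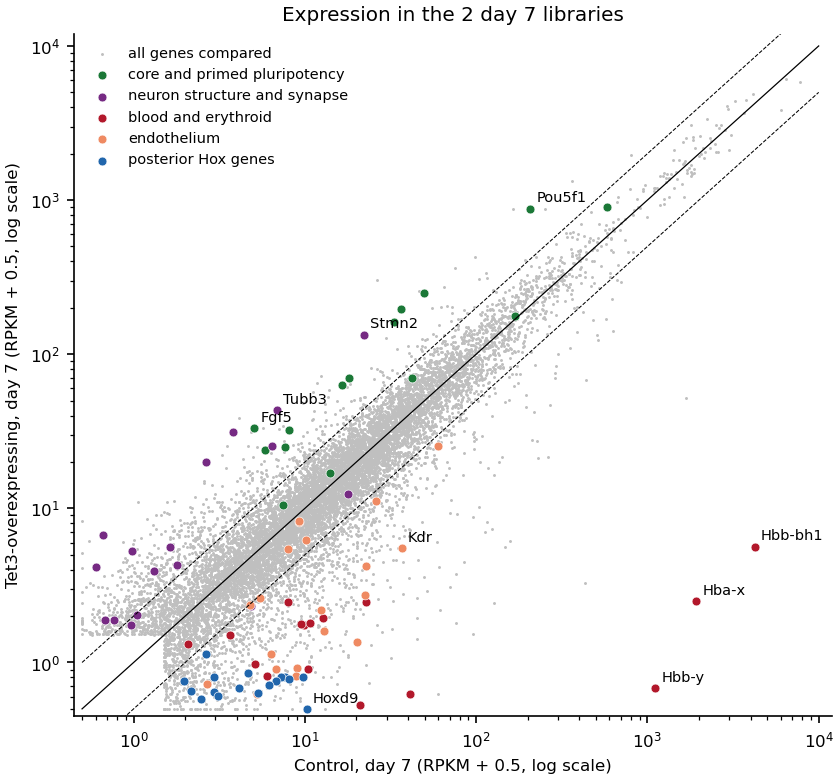
Each point is 1 gene, with its RPKM plus 0.5 in the control library on day 7 (x axis, log scale) against the Tet3-overexpressing library (y axis, log scale); the solid line marks equal values and the dashed lines 2-fold. The blood and erythroid, endothelial and posterior Hox genes lie below the solid line and the core and primed pluripotency genes lie on or above it, with Hbb-bh1 at 4229.7 RPKM on the x axis and 5.15 on the y axis before the 0.5 is added. All 17 posterior Hox genes, 7 of 16 blood genes and 7 of 20 endothelial genes passed the filter only in the control, which fixes their side of the line.

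On day 4 the same contrast held fewer differences. Of 11614 genes compared, 212 (1.83%) were at least 2-fold higher and 418 (3.6%) at least 2-fold lower with Tet3. The 829 genes chosen as higher on day 7 had a median of 1.63 RPKM in the control and 5.88 with Tet3 on that day, while the day 4 libraries, which had no part in choosing them, had medians of 5.33 and 5.97. The 1373 lower genes had day 7 medians of 8.54 and 1.98 RPKM, and day 4 medians of 1.81 and 1.4. In both sets the day 4 medians lay nearer to the day 7 median with Tet3 than to that of the day 7 control. The gap between the day 7 medians itself follows from how the sets were chosen. On day 4, 793 of the higher and 902 of the lower genes passed the filter. Between days 4 and 7, 2476 of 12125 genes (20.4%) differed by 2-fold or more in the control cells and 548 of 11631 (4.71%) in the Tet3-overexpressing cells. These counts use the day 7 libraries again and are given as a description.

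The targeted gene was higher in the cells labelled as overexpressing it. Tet3 stood at 5.87 RPKM in the control and 14.1 with Tet3 on day 7, a log2 difference of 1.20 (95% counting interval of the log2 ratio 1.13 to 1.40). On day 4 it was at 0.96 RPKM in the control and 12.5 with Tet3. The values with Tet3 overexpression were thus close on both days, and the smaller difference on day 7 went with a higher control value. The wild-type SFEB libraries held 8.11 RPKM on day 6 and 10.2 on day 10, both below the Tet3-overexpressing value of day 7. Whether these reads come from the endogenous gene or an added copy cannot be told apart in a table by gene.

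Other genes of the DNA methylation machinery also differed. Tet1, the family member most abundant in pluripotent cells, was at 2.55 RPKM in the control and 7.97 with Tet3 (difference 1.47), and Tet2 at 2.1 RPKM in the control and 3.17 with Tet3 (difference 0.50). Dnmt3b, a de novo DNA methyltransferase of the early embryo, was at 49 RPKM in the control and 251 with Tet3, a difference of 2.34. Its partner Dnmt3l, which has no catalytic activity of its own and stimulates the de novo enzymes, was at 29.2 RPKM in the control and 127 with Tet3 (difference 2.10). On day 4 Dnmt3b had been at 182 RPKM in the control and 143 with Tet3, so the day 7 value was the lower one in the control and the higher one with Tet3. Dnmt3a was at 23 against 39.9 RPKM, and the maintenance pair Dnmt1 and Uhrf1 at 54.9 against 67.3 RPKM and 85 against 118 RPKM, all under 2-fold. Of the 15 genes of this list past the filter, 4 were at least 2-fold higher and 1 lower. The lower one was Cxxc4 (1.56 against 0.46 RPKM), a CXXC-domain protein.

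**Figure D2:**
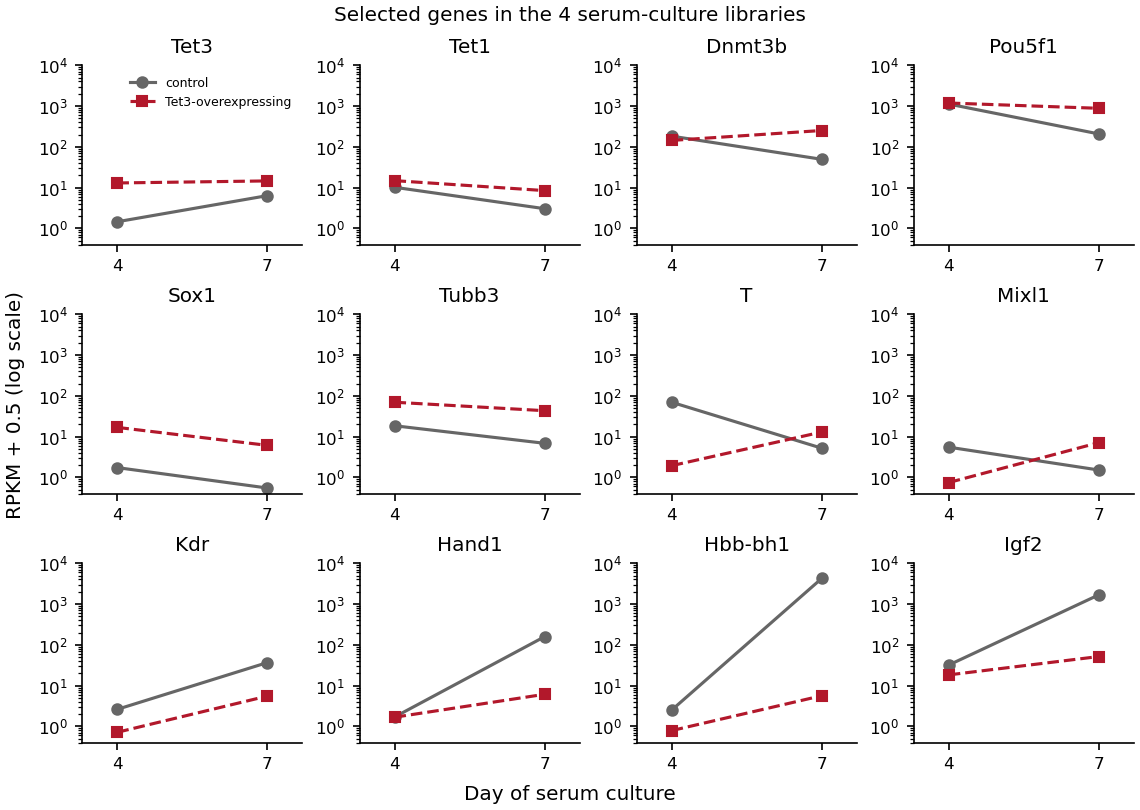
RPKM plus 0.5 (y axis, log scale) of 12 genes on days 4 and 7 (x axis) in control (circles, solid lines) and Tet3-overexpressing (squares, dashed lines) cells, 1 library per point and no error bars. Hbb-bh1, Hand1, Kdr and Igf2 differ between the days more in the control, where day 7 is higher, as do Pou5f1 and Dnmt3b, where it is lower, and the lines of T and Mixl1 cross.

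Primitive blood genes gave the widest gap. Hbb-y, an embryonic beta-like globin, was at 1113 RPKM in the control and 0.18 with Tet3 on day 7, a difference of -10.68. Hba-x, the embryonic zeta globin, was at 1922 RPKM in the control and 2 with Tet3 (difference -9.59), and Hbb-bh1, the embryonic beta-H1 globin, at 4229.7 RPKM in the control and 5.15 with Tet3 (difference -9.55). Hbb-bh1 was the fourth most abundant gene of the control library, behind Eef1a1, Rpl41 and Rps14. The Hbb-y value with Tet3 rests on an estimated 2 reads, and the 95% counting interval of its log2 ratio ran from -15.62 to -10.72. None of the 3 globins exceeded 2.01 RPKM in either day 4 library, so the day 7 control stood alone. Their sequences are related and the authors' handling of reads shared by related genes is not given in the sources used here, so the split between the globins is less certain than their sum.

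The genes that make red cells showed the same side. Alas2, the erythroid enzyme that begins haem synthesis, was at 40.4 RPKM in the control and 0.12 with Tet3 (difference -6.04). Its value with Tet3 rests on an estimated 3 reads, with a counting interval of the log2 ratio, again without the added 0.5, from -10.44 to -6.61. Regulators were lower by less: Gata1, the master regulator of the erythroid lineage, was at 22.3 RPKM in the control and 1.96 with Tet3 (difference -3.21), Nfe2 at 9.98 against 0.41 RPKM and Klf1, the erythroid activator of adult globins, at 4.63 against 0.48 RPKM. Tal1 and Lmo2, which act earlier in blood formation, were at 9.38 against 1.25 RPKM and 9.03 against 1.29 RPKM. Of 16 blood and erythroid genes past the filter (20 in the table), 15 were at least 2-fold lower and 0 higher, with a median of -2.79; 7 of the 16 passed only in the control. Runx1, at 1.59 against 0.82 RPKM and a difference of -0.66, was the one under 2-fold. In RNA from whole cultures, fewer cells of a type and less RNA per cell cannot be told apart, here and for every lineage below.

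The promoters of 3 of these erythroid genes are printed here because their transcripts were abundant in the control and near 0 with Tet3. Each run is the 250 bases before the RefSeq transcription start (GRCm38.p6, a later build than the mm9 named for the counts), written in the gene's own direction. The windows are chr7:103853208-103853457 (minus strand) for Hbb-y, chr11:32276350-32276599 (plus strand) for Hba-x and chrX:150547167-150547416 (plus strand) for Alas2. Capitals mark GATAA, the core that GATA factors bind, and CACCC, the core bound by Klf1 and its relatives, on either strand (TTATC and GGGTG are the same motifs read on the other strand).
Hbb-y: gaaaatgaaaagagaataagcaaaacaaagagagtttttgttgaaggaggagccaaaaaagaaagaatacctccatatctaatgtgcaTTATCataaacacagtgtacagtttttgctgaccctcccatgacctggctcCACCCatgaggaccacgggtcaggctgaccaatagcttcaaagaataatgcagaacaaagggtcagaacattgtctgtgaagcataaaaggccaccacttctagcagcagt
Hba-x: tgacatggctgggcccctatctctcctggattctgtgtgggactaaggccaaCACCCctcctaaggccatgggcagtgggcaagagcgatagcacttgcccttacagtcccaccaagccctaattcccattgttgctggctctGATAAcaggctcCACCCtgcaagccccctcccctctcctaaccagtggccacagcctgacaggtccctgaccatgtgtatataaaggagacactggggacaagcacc
Alas2: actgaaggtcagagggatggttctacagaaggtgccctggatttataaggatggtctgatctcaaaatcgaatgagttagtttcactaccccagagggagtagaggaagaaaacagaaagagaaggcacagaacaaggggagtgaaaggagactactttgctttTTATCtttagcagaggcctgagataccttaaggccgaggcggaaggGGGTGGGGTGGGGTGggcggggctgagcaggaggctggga
Each window held 1 GATAA match, and the CACCC matches numbered 1 in Hbb-y, 2 in Hba-x and 3 in Alas2. Of all 32851 promoter windows of this length in the table, 22.6% hold GATAA and 52% hold CACCC. Of the 12 blood and erythroid genes past the filter with a promoter there, 50% have GATAA and 83.3% CACCC. For the 9564 compared genes with a promoter the shares are 17.1% and 61.9%. Only 75% of the blood and erythroid genes and 79.5% of the compared genes matched a promoter, so a comparison of these shares is void. The 3 printed windows are thus examples, and GATAA is not found in all genes of the list. A match is a description of letters and not a measured binding site.

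Endothelial genes were lower as a group. Kdr, the main VEGF receptor of early vessels, was at 36.3 RPKM in the control and 5.05 with Tet3 on day 7 (difference -2.73). Tie1 and Tek, receptors of the angiopoietin system, were at 19.5 against 0.85 RPKM and 11.9 against 1.69 RPKM, and Cdh5, the adhesion molecule of endothelial junctions, at 21.9 against 2.25 RPKM. Cldn5, a tight junction protein, and the transcription factor Sox18 were at 8.4 against 0.32 RPKM and 8.54 against 0.42 RPKM. Of 20 members, all past the filter, 16 were at least 2-fold lower and 0 higher, with a median of -2.46 on day 7 and -0.58 on day 4, and 7 passed only in the control. Over the 13 that reached 1 RPKM in both libraries the day 7 median was -1.22. The 4 under 2-fold were Eng (9.65 against 5.7 RPKM), Flt1 (8.74 against 7.7 RPKM), Etv2 (7.44 against 4.96 RPKM), a factor at the start of the blood and vessel lineage, and Sox17 (8.73 against 7.8 RPKM). Sox17 and Flt1 are also expressed outside endothelium.

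Cardiac and lateral plate mesoderm regulators followed. Hand1 and Hand2, basic helix-loop-helix factors of heart and lateral mesoderm, were at 158 against 5.63 RPKM (difference -4.69) and 70.3 against 2.58 RPKM (difference -4.52). Tbx20 was at 15.6 against 0.8 RPKM, Foxf1 (listed as Foxf1a) at 13.8 against 0.75 RPKM and Isl1 at 9.86 against 1.11 RPKM. Nkx2-5, a core cardiac factor, was low in both libraries, at 2.91 against 0.37 RPKM, and Gata4 differed less, at 27.1 against 13 RPKM (difference -1.03). Of 16 members past the filter, 14 were lower and 0 higher by 2-fold, with a median of -2.27, and 6 passed only in the control. Pitx1, a homeodomain factor of hindlimb and lateral mesoderm, was at 59.6 RPKM in the control and 0.12 with Tet3 (difference -6.60) and was among the 5 genes with the largest negative difference; an estimated 3 reads with Tet3 put the counting interval of its log2 ratio from -11.33 to -7.51.

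Contractile proteins showed the same order. Among sarcomere genes 13 of 14 past the filter were lower and 0 higher, with a median of -1.81, and 5 passed only in the control. The troponins led: Tnni1 was at 94.9 against 1.03 RPKM (difference -5.96), Tnnt2 at 31.5 against 0.57 RPKM (difference -4.90) and Tnnc1 at 60.5 against 3.66 RPKM (difference -3.87). Acta2, the smooth muscle actin, was at 430.4 RPKM in the control and 2.79 with Tet3 (difference -7.03), while Tagln, another early smooth muscle protein, was at 73.3 against 24.4 RPKM and Cnn1 at 3.02 against 5.12 RPKM. Of 9 smooth muscle and cytoskeleton genes past the filter, 5 were lower and 0 higher, with a median of -1.57, and over all 12 in the table the median was -0.59. Some of these gaps were present on day 4: Tpm1, a tropomyosin, stood at 131 RPKM in the control and 40.3 with Tet3 then and at 299.7 RPKM in the control and 100.2 with Tet3 on day 7, and the sarcomere median on day 4 was -1.11. Rgs5, a pericyte gene, was at 75.5 RPKM in the control and 1.3 with Tet3 (difference -5.40).

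Matrix and mesenchyme genes were lower in most cases. Col3a1, a fibrillar collagen of soft connective tissue, was at 147 RPKM in the control and 5.15 with Tet3 (difference -4.71), and Col1a1 and Col1a2, the chains of type I collagen, at 104 against 9.72 RPKM and 58.5 against 5.59 RPKM. Postn was at 31.7 against 1.16 RPKM, the platelet-derived growth factor receptors Pdgfrb and Pdgfra at 20.4 against 1.71 RPKM and 21.6 against 3.61 RPKM, and Lum at 3.42 RPKM in the control and listed at 0 with Tet3. Of 18 collagens past the filter 11 were lower and 1 higher, and of 24 other matrix and mesenchyme genes 16 were lower and 2 higher (medians -1.17 and -1.76). Of the collagens 4 passed only in the control, and without the filter the median of the other matrix genes was -1.04. The higher collagen was the type VI chain Col6a2, at 3.6 against 10.4 RPKM, and its partner Col6a1 was at 7.74 against 13.1 RPKM. Basement membrane collagen IV was under 2-fold lower (Col4a1 128 against 85.1 RPKM).

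Regulators of epithelial-mesenchymal transition had a median of -1.87, with 10 of 13 lower, and 5 of the 13 passed the filter only in the control, which fixes their direction. Snai2 was at 13.7 against 0.31 RPKM (difference -4.13), Twist2 at 15.4 against 0.44 RPKM (difference -4.08), Twist1 at 22.3 against 2.94 RPKM and Prrx2 at 16.9 against 1.97 RPKM. The 1 member that was higher was Cdh1, E-cadherin, at 47.9 RPKM in the control and 125 with Tet3 (difference 1.37), and Cdh2, N-cadherin, was at 34.2 against 18.9 RPKM. Epithelial genes split: of 18 past the filter 2 were higher, Cdh1 and the transcription factor Grhl2 (1.77 against 5.72 RPKM), and 4 were lower, among them Gata3 (3.63 against 0.87 RPKM), Dsp (36.1 against 12.2 RPKM) and Krt19 (84.8 against 36.8 RPKM). The simple keratins Krt8 and Krt18 were abundant in both libraries, at 524 against 269 RPKM and 607 against 338 RPKM.

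Hox genes, which carry position along the body axis, were lower throughout. All 17 of the 17 posterior Hox genes past the filter (23 in the table) were at least 2-fold lower, with a median of -2.60, and 5 of 6 anterior ones were, with a median of -1.55. All 17 posterior and 5 of the anterior genes passed the filter only through the control library, which fixes their direction, so these counts are no support for it. Hoxd9 was at 9.72 RPKM in the control and listed at 0 with Tet3, Hoxc10 at 9.28 against 0.31 RPKM, Hoxa10 at 7.13 against 0.31 RPKM, Hoxa13 at 6.29 against 0.26 RPKM and Hoxd13 at 5.65 against 0.21 RPKM. On day 4 none of these 5 exceeded 1 RPKM in either library. Cdx2, which activates posterior Hox genes, was at 44.9 RPKM in the control and 0.93 with Tet3 (difference -4.99). Retinoic acid genes, which act on anterior Hox genes, were lower in 4 of 12 cases: the receptor Rarb (6.24 against 1.01 RPKM) and the synthetic enzymes Rdh10 (11 against 2.09 RPKM) and Aldh1a2 (5.19 against 1.49 RPKM) were among them, whereas Cyp26a1, which degrades retinoic acid, was at 16.5 against 32.3 RPKM.

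Endoderm gave a mixed picture. Secreted products of visceral endoderm and yolk sac were lower: Ttr was at 76.1 against 3.23 RPKM, Apoa1 at 69.4 against 8.88 RPKM, Rbp4 at 84.1 against 4.01 RPKM and Apom at 61 against 1.68 RPKM, with 13 of 23 members lower, 3 higher and a median of -1.73. Of these 23, 5 passed only in the control, and over all 27 in the table the median was -0.84. The 3 that were higher were Apoa2 (3.93 against 18 RPKM), Lrp2 (1.95 against 6.21 RPKM) and Trf (1.58 against 3.9 RPKM). Of the definitive endoderm factors, 4 that were chosen after their values were seen differed by less than 2-fold: Sox17 was at 8.73 against 7.8 RPKM, Foxa2 at 5.59 against 5.05 RPKM, Cxcr4 at 9.8 against 10.1 RPKM and Hhex at 13.2 against 10.6 RPKM. Cer1, a secreted antagonist of Nodal, BMP and Wnt made by anterior endoderm, was at 3 RPKM in the control and 24.7 with Tet3, a difference of 2.85, and Gsc, an organizer gene, at 1.22 against 6.67 RPKM (difference 2.06). Of 15 definitive endoderm and gut regulators, 6 were at least 2-fold lower, Cdx2 and Gata6 (24.1 against 4.71 RPKM) the most, and 2 higher. The median of that list was -0.80, 12 of the 15 had a difference below 0, and 3 passed only in the control. Tdo2, a tryptophan-degrading enzyme, was at 23.3 against 0.24 RPKM and ranked among the 15 largest negative differences.

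**Figure D3:**
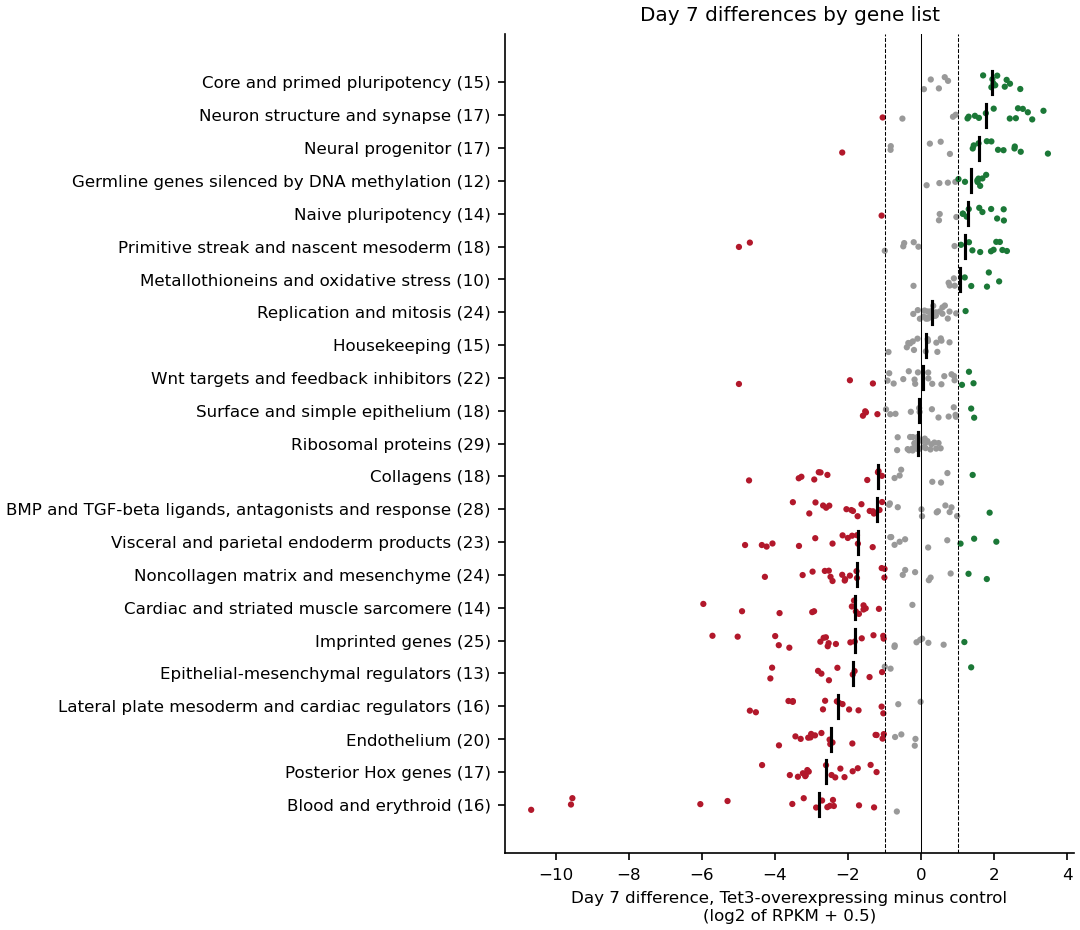
Each point is 1 gene past the filter, placed by its day 7 difference (x axis, log2 of RPKM plus 0.5, Tet3-overexpressing minus control) in 23 gene lists (rows, with the number of genes); green points are at least 2-fold higher, red ones at least 2-fold lower, and the black bar is the median. Medians run from -2.79 in the blood and erythroid genes to 1.95 in the core and primed pluripotency genes, and the ribosomal protein genes sit within 2-fold of equality.

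Genes of pluripotency made up the clearest higher group. Pou5f1 (Oct4), the central pluripotency factor, was at 207 RPKM in the control and 879.9 with Tet3 on day 7 (difference 2.09) after 1118 RPKM in the control and 1186 with Tet3 on day 4. Sox2, its partner, was at 16 RPKM in the control and 62.2 with Tet3 (difference 1.93), and Nanog at 4.13 RPKM in the control and 8.55 with Tet3 (difference 0.97, just under 2-fold). Utf1 was at 32.4 against 161 RPKM, L1td1 at 36 against 197 RPKM and Gdf3 at 5.33 against 23.3 RPKM. Of 15 core and primed genes, 10 were higher and 0 lower, with a median of 1.95. Lin28a, at 168 against 177 RPKM, and Sall4, at 41.6 against 69.7 RPKM, were under 2-fold. Sox2 on day 4 stood at 51.2 RPKM in the control and 86.3 with Tet3.

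The naive state, that of the early epiblast before implantation, was represented by 14 genes, of which 10 were higher and 1 lower with a median of 1.28. Nr0b1 was at 4.73 against 24.7 RPKM, Esrrb at 13.4 against 58.3 RPKM, Zfp42 (Rex1) at 7.05 against 23.7 RPKM and Klf4 at 4.15 against 9.78 RPKM. Tdgf1 (Cripto), the Nodal co-receptor, was at 75 against 362 RPKM (difference 2.26). The lower member was Tbx3, at 14 against 6.35 RPKM, which is also made in mesoderm. Markers of the later, primed epiblast were higher too: Fgf5 was at 4.56 RPKM in the control and 32.8 with Tet3 (difference 2.72), Otx2 at 9.61 against 49.1 RPKM and Pou3f1 at 0.86 against 8.52 RPKM. On day 4 Fgf5 had the other order, at 22.5 RPKM in the control and 9.49 with Tet3. Pim2, a survival kinase gene, was at 25.9 RPKM in the control and 303 with Tet3 (difference 3.52) and had the second largest positive difference.

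Neural genes were higher, from low control values. Sox1, an early and specific factor of the neural plate, was at 0.05 RPKM in the control and 5.61 with Tet3, a difference of 3.47, with an estimated 7 reads in the control and 469 with Tet3. On day 4 it was at 1.24 RPKM in the control and 16.3 with Tet3, so the order was the same on both days. Pax6 was at 0.33 against 3.47 RPKM, Zic2 at 5.17 against 32.9 RPKM and Zic5 at 1.07 against 8.8 RPKM. Of 17 neural progenitor genes past the filter (24 in the table), 11 were higher and 1 lower, with a median of 1.57 on day 7 and -0.14 on day 4, and 6 passed only with Tet3. Over all 24 genes, with no filter, the day 7 median was 0.77. The lower one was Vim, the intermediate filament vimentin, at 631 against 141 RPKM, which mesenchymal cells also make. Nes (nestin) was at 11.4 against 16.7 RPKM, under 2-fold. Sox2, Zic2 and Pou3f1 are expressed in the epiblast as well, so part of this list is shared with the pluripotent state.

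Structural genes of neurons showed a median of 1.77, with 13 of 17 higher and 1 lower; 8 passed only with Tet3, and over all 27 in the table the median was 0.95. Tubb3, the neuronal beta-tubulin, was at 6.37 RPKM in the control and 42.8 with Tet3 (difference 2.65) and on day 4 at 18 RPKM in the control and 69.2 with Tet3. Stmn2 was at 21.7 against 134 RPKM (difference 2.60), Stmn3 at 0.16 against 6.24 RPKM (difference 3.35), Crmp1 at 3.31 against 30.9 RPKM (difference 3.04) and the neurofilament gene Ina at 2.15 against 19.6 RPKM (difference 2.92). Elavl3, an RNA-binding protein of neurons, was at 0.1 against 3.64 RPKM. On day 4 the control already held 97.7 RPKM of Stmn2 and 23.7 of Crmp1, and 1 of 17 genes of the list, Tubb3, was 2-fold higher with Tet3. In wild-type SFEB cultures of day 10 the levels were 616 RPKM for Tubb3, 513 for Stmn2 and 296 for Crmp1, far above the Tet3-overexpressing library; for Sox1 the SFEB value was 20.8.

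Proneural and regional genes were sparse. Of 26 proneural and neuronal regulators in the table only 7 reached 1 RPKM in a day 7 library, 5 of them higher and 1 lower. Of the 7, 4 passed only with Tet3, which fixes their direction, and over all 26 the median difference was 0.19. Dll3 was at 0.58 against 4.49 RPKM, Dll1 at 0.66 against 2.7 RPKM and Neurod1 at 0.23 against 1.19 RPKM, while Isl1 was lower and Lhx1, which is also a mesendoderm gene, was at 3.7 against 15.3 RPKM. Of 24 forebrain and midbrain regulators 6 passed the filter, 3 of them only with Tet3, and 2 were higher, Otx2 and Fgf8 (7.07 against 22.8 RPKM). Olig1 and Olig2, factors of the ventral neural tube, were at 2.21 against 9.74 RPKM and 1.79 against 11.3 RPKM, while Shh, the ventral signal, was at 1.36 against 0.02 RPKM. Neural crest genes were lower in 6 of 10 cases past the filter, Snai2 and Msx1 (10.6 against 1.45 RPKM) among them, but 3 of the 10 passed only in the control and the median over all 20 in the table was -0.02. Foxd3, shared by crest and pluripotent cells, was higher (0.68 against 3.15 RPKM).

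Promoters of 3 genes of the higher side are printed in the same way, with each CG, the site of DNA methylation, in capitals. Dnmt3b stands for the methylation enzymes, Sox1 for neural genes and Ddx4 for germline genes. The windows are chr2:153649199-153649448 (plus strand), chr8:12395269-12395518 (plus strand) and chr13:112652311-112652560 (minus strand) of GRCm38.p6.
Dnmt3b: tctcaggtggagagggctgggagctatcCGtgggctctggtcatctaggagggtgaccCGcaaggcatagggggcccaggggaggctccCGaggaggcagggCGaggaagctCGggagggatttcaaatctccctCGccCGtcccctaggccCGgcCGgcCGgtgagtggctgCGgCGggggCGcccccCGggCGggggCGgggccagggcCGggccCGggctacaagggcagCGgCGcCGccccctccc
Sox1: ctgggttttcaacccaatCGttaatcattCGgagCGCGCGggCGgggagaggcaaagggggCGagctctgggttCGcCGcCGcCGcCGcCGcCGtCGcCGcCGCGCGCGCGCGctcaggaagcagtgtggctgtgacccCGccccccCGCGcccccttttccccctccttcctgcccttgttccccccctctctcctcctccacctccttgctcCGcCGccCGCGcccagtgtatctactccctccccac
Ddx4: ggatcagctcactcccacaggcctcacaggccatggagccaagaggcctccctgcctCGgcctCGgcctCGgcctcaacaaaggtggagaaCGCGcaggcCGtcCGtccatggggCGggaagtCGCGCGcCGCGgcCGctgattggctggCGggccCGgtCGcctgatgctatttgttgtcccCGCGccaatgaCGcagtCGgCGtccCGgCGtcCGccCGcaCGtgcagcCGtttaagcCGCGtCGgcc
These windows hold 21, 29 and 31 CpGs and are not typical. The median was 16 over the 9564 compared genes with a promoter in the table. Over the 9 germline genes past the filter with a promoter it was 13. A comparison of CpG content between the higher and the lower genes is void, because only 72.1% and 73.9% of them matched a promoter in the table. No DNA methylation was measured in these libraries.

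Germline genes, several of which are kept silent in somatic cells by promoter methylation, were higher in 8 of 12 cases past the filter (24 in the table) and lower in 0, with a median of 1.37; 6 passed only with Tet3, and over all 24 the median was 0.74. Ddx4 (Vasa), a germ cell RNA helicase, was at 1.57 RPKM in the control and 6.62 with Tet3 (difference 1.78). The meiotic genes Sycp3 and Syce1 were at 1.5 against 5.45 RPKM and 0.63 against 2.97 RPKM, and the piRNA pathway genes Piwil2, Tdrd1 and Mael at 0.57 against 2.63 RPKM, 0.17 against 1.45 RPKM and 0.36 against 1.48 RPKM. Zfp42 is on this list and on the naive one. Levels were higher on day 4, when Ddx4 was at 9.8 RPKM in the control and 10.7 with Tet3. Sycp3 was then at 13.3 RPKM in the control and 6.09 with Tet3. Of 16 genes of the list past the filter on day 4, 5 were at least 2-fold higher with Tet3 and 1 lower, with a median of 0.63. Over all genes the day 4 shares were 1.83% higher and 3.6% lower.

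Imprinted genes, expressed from the maternal or the paternal copy under control of methylated regions, were lower in 17 of 25 cases and higher in 1, with a median of -1.82, and 2 passed only in the control. Igf2, a fetal growth factor, was at 1679 RPKM in the control and 51.2 with Tet3 (difference -5.02), and Dlk1 at 126 RPKM in the control and 1.92 with Tet3 (difference -5.71). Cdkn1c, which restrains growth, was at 262 against 21 RPKM, Mest at 435 against 68 RPKM, Peg10 at 268 against 46 RPKM and Plagl1 at 25.7 against 1.26 RPKM. H19, the reciprocal partner of Igf2, was at 6.02 against 9.51 RPKM (difference 0.62), and Meg3, the partner of Dlk1, at 7.76 against 4.49 RPKM (difference -0.73). Grb10 was the higher gene, at 1.28 against 3.55 RPKM. On day 4 the list median was -0.14, and Igf2 stood at 31.5 RPKM in the control and 17.8 with Tet3. Igf2r was at 135 against 19.6 RPKM and its antisense RNA Airn at 3.03 against 0.1 RPKM; whether the authors' counting used strand is not given in the sources used here, so reads of that overlap cannot be told apart.

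Among signalling pathways, BMP and TGF-beta genes were mostly on the lower side. Of 28 genes, all past the filter, 16 were lower and 1 higher, with a median of -1.21, and 5 passed only in the control. The ligand Bmp4 was at 39.8 RPKM in the control and 3.04 with Tet3 (difference -3.51), Bmp2 at 14 against 5.43 RPKM and Bmp5 at 10.5 against 1.22 RPKM. The feedback inhibitors Bambi and Smad6 were at 36.9 against 3.98 RPKM and 16.2 against 1.75 RPKM, and the target genes Id1, Id2 and Id3 at 108 against 29.2 RPKM, 57.5 against 13.6 RPKM and 96.8 against 28.7 RPKM. The higher gene was Fst (follistatin), an extracellular antagonist of activin, at 4.24 against 16.9 RPKM.

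Nodal and FGF genes split by member. Lefty1 and Lefty2, targets and inhibitors of Nodal, were at 10.7 against 56.5 RPKM and 18.2 against 49 RPKM, Nodal itself at 16.3 against 35.3 RPKM, and 5 of 11 Nodal pathway genes were higher with 1 lower. FGF ligands of the epiblast were higher, with Fgf4 at 7.61 against 31.5 RPKM, Fgf8 at 7.07 against 22.8 RPKM and Fgf17 at 1.19 against 5.93 RPKM. The receptors Fgfr2 and Fgfr3 were lower, at 9.21 against 2.31 RPKM and 11.4 against 1.26 RPKM, and Fgfr1, the most abundant receptor, was at 52.7 against 41.2 RPKM. Over the FGF list 6 of 19 were higher and 3 lower.

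Wnt signalling is antagonised by secreted Dkk and Sfrp proteins and read out by genes such as Axin2. On day 7 Axin2 was at 6.85 RPKM in the control and 6.43 with Tet3 (difference -0.08), Sp5 at 1.74 against 3.73 RPKM, Lef1 at 24.2 against 13 RPKM and Tcf7 at 20.9 against 31 RPKM. Of 22 Wnt target and feedback genes 3 were higher and 3 lower, with a median of 0.06. On day 4 it was 1 higher and 5 lower of 21, with a median of -0.40. Over all genes compared, 6.89% were higher and 11.4% lower on day 7, and 1.83% and 3.6% on day 4. The 3 of 22 lower on day 7 thus lie near that share. The ligands Wnt2 and Wnt5a were lower, at 21.4 against 1.57 RPKM and 18.5 against 2.05 RPKM, while Wnt8a was higher, at 1.69 against 7.04 RPKM. Of the antagonists, Dkk1 was at 14.8 against 4.85 RPKM, Dkk2 at 3.16 against 0.19 RPKM, Dkk3 at 13.6 against 1.69 RPKM and Frzb at 17.7 against 7.36 RPKM, all lower. Sfrp1, Sfrp2 and Sfrp5 were under 2-fold higher, with Sfrp1 at 31.7 against 48.7 RPKM and on day 4 at 20.7 against 33.5 RPKM. Over the antagonist list 2 of 11 were higher and 5 lower. The R-spondin gene Rspo3, an enhancer of Wnt signalling, was at 20.9 against 3.46 RPKM, and of 19 R-spondins and receptors 4 were lower and 2 higher.

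Primitive streak and nascent mesoderm genes had opposite orders on the days. On day 4 12 of 18 were at least 2-fold lower with Tet3 and 0 higher, with a median of -1.88. On day 7 2 of 18 were lower and 10 higher, with a median of 1.20. Each 18 are the genes past the filter on that day and are not all the same: Msgn1 (1 against 0.08 RPKM on day 4) passed on day 4 only. Genes that passed only in the control on day 4, Mixl1 and Msgn1 among them, had a fixed direction there, and their number was not counted. On day 7, 2 passed only in the control and 1 only with Tet3. Over all 24 genes of the list, with no filter, the day 7 median was 0.58. T (Brachyury), the defining gene of the streak, was at 69.2 RPKM in the control and 1.44 with Tet3 on day 4 and at 4.72 RPKM in the control and 12.5 with Tet3 on day 7. Mixl1 was at 5.02 against 0.25 RPKM on day 4 and 1.02 against 6.62 RPKM on day 7, and Eomes, a T-box factor of mesendoderm, at 12.7 against 2.95 RPKM and then 5.55 against 23.5 RPKM. Mesp1, which marks the exit to cardiac mesoderm, was at 0.41 against 3.56 RPKM on day 7. In the Tet3-overexpressing cells T, Mixl1 and Eomes were thus each higher on day 7 than on day 4, and in the control each was lower. The 2 members at least 2-fold lower on day 7 were Cdx2 and Hand1, genes that stay on in later mesoderm. In all, 7 of the 18 had a day 7 difference below 0. The day 7 level of T with Tet3 stayed below the day 4 control value, while those of Mixl1 and Eomes were above it.

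**Figure D4:**
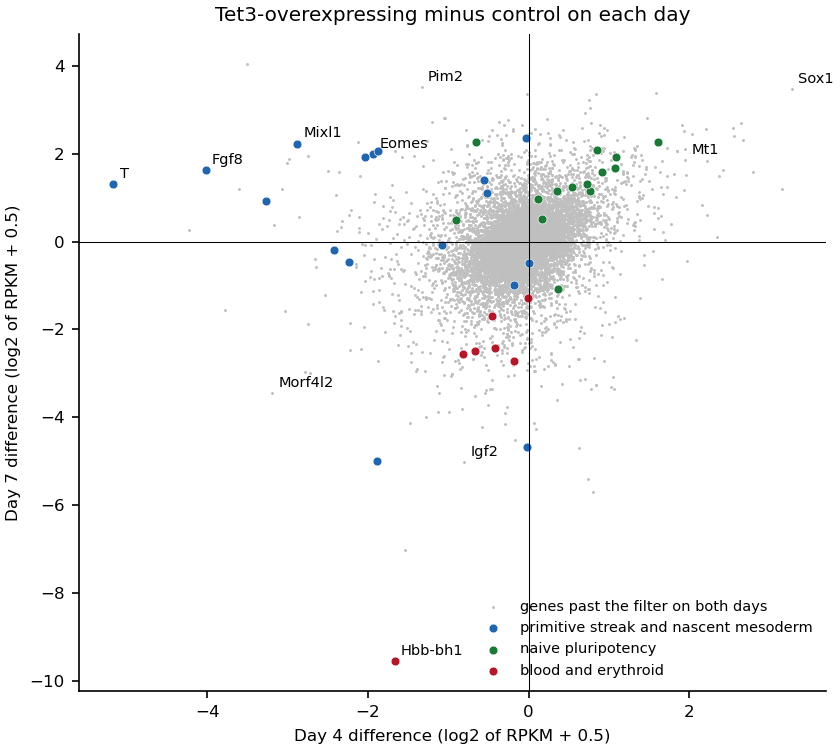
Each point is 1 of the 11254 genes past the filter on both days, with its day 4 difference (x axis) against its day 7 difference (y axis), both as log2 of RPKM plus 0.5, Tet3-overexpressing minus control. T, Fgf8, Mixl1 and Eomes lie at upper left (lower on day 4, higher on day 7), Sox1 and Mt1 at upper right and Morf4l2 at lower left.

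The 2 contrasts share no library. Across the 11254 genes past the filter on both days Pearson's r was 0.30 and Spearman's rho 0.34, a description across genes, which are not independent. Of 793 genes higher on day 7, 94 (11.9%) were at least 2-fold higher and 42 (5.3%) at least 2-fold lower on day 4. Of 902 lower on day 7, 107 (11.9%) were lower and 12 (1.33%) higher on day 4. Over all 11254 genes the day 4 shares were 1.56% higher and 3.32% lower.

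Among the genes that kept a wide difference on both days, Sox1 led the higher ones. After it came 1700029P11Rik (2.56 against 18.6 RPKM on day 4, 1.22 against 10.7 RPKM on day 7), the septin gene Sept1 (13 against 85.3 RPKM, then 9.24 against 47.9 RPKM) and Tcf15, a factor of somites also made in the epiblast (9.51 against 38.1 RPKM, then 2.16 against 11 RPKM). Tubb3, the metallothioneins Mt1 (319 against 1234 RPKM, then 365 against 1320.5 RPKM) and Mt3, Hsd17b14, Nsg2 and Manba completed the 10. Morf4l2, which encodes a subunit of chromatin-modifying complexes, led the genes lower on both days, ranked by the smaller of the paired differences, at 215 RPKM in the control and 23.1 with Tet3 on day 4 and 230.2 RPKM in the control and 20.6 with Tet3 on day 7. Its SFEB wild-type values were 36.3 and 37.1 RPKM. It was followed by Rnf128 (15.9 against 3.01 RPKM, then 34.8 against 5.9 RPKM), Prickle1, a planar polarity gene (10.4 against 1.83 RPKM, then 25.4 against 6.69 RPKM), Anxa3, Pdgfb, Ramp2, Gprc5c, Gchfr, Hdac7 and Tpm1.

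Marker genes of each cell type put the labels beside the data. Summed over 5 markers, pluripotent cell genes stood at 812 RPKM in the control and 1881 with Tet3 on day 7, and all 5 were higher, so both libraries held RNA of the labelled stem cell type. The 5 blood markers summed to 6178 and 9.66 RPKM. Only 1 of them, Ptprc, was higher with Tet3, and it was under 1 RPKM in both libraries (0.03 against 0.07 RPKM). The 5 fibroblast markers summed to 287 and 16.6, with 0 higher. The 4 smooth muscle markers summed to 507 and 32.5 RPKM, although 2 of the 4 were higher with Tet3. These were Cnn1 and Myh11, the latter under 1 RPKM in both libraries (0.07 against 0.15 RPKM). The smooth muscle sum is thus mostly that of Acta2 and Tagln. The 5 neuron markers summed to 28.4 and 182, all 5 higher, and in the wild-type SFEB library of day 10 to 1532. Of these 5, Dcx stayed under 1 RPKM on day 7 (0.02 against 0.15 RPKM). Of the 4 trophoblast markers none reached 1 RPKM, with Prl3d1 listed at 0 in both libraries. The 3 macrophage markers summed to 18.7 and 16.8. The 3 definitive endoderm markers summed to 17.3 and 37.6 RPKM, although only 1 was higher with Tet3, Cer1 (3 against 24.7 RPKM). The 5 neural progenitor markers summed to 27.8 and 88.2 RPKM, all 5 higher, although Hes5 stayed under 1 RPKM (0.06 against 0.18 RPKM). Sox2 is counted both there and among the pluripotent markers.

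**Figure D5:**
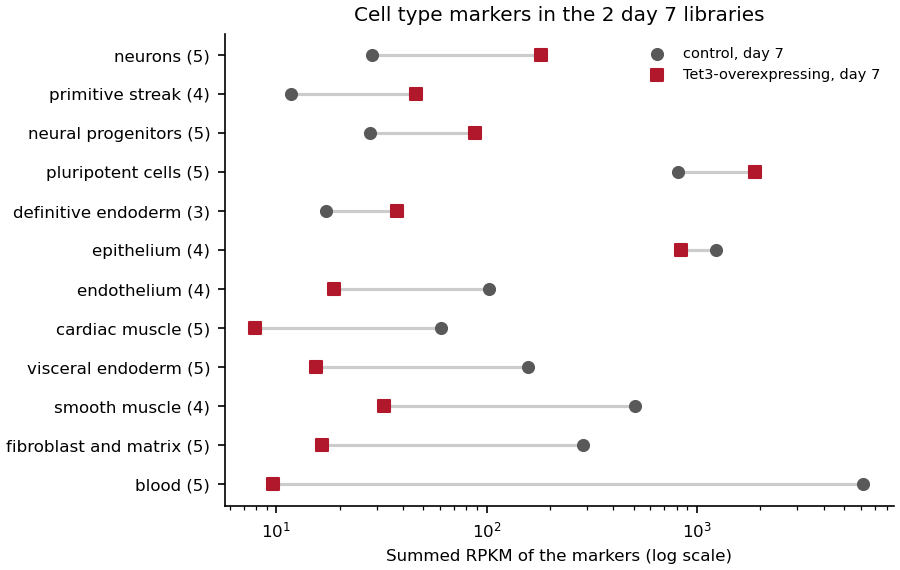
Summed RPKM (x axis, log scale) of the markers of 12 cell types with at least 3 markers at 1 RPKM (rows, with the number of markers) in the control library (circles) and the Tet3-overexpressing library (squares) on day 7. The blood markers span the widest range, from 6178 to 9.66, and the neuron markers run the other way, from 28.4 to 182.

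Genes of general cell function gave the scale of the comparison. None of 29 ribosomal protein genes, 26 respiratory chain subunits and 15 housekeeping genes reached 2-fold in either direction, with medians of -0.08, 0.04 and 0.13. Of 24 replication and mitosis genes 1 was higher and 0 lower, with a median of 0.30. The 10 most abundant genes took 8.86% of the summed RPKM in the control and 8.72% with Tet3, and apart from Hbb-bh1 they were translation genes (Eef1a1 and ribosomal proteins), Hsp90ab1 and, with Tet3, the glycolytic gene Pkm2. Depth as estimated from the table was 27100000 reads in the control and 17300000 with Tet3 on day 7, and 44000000 and 22100000 on day 4. Genes at 1 RPKM or more numbered 11481 and 11292 on day 7.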

How the data were processed

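Total RNA from mouse embryonic stem cells, grown as embryoid bodies per the sample titles, was sequenced in 10 libraries. The SOLiD platform was used, per the labels' protocols. The 2 serum-culture libraries of day 7 were compared, with the 2 of day 4 beside them. The authors deposited 1 table of RPKM rounded to 2 decimals, and per the submitters' processing notes reads were counted with HTSeq on mm9. Which aligner, annotation and strand setting they used was not given in the sources used here.

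Differences were log2(RPKM + 0.5) between libraries for genes at 1 RPKM or more in either, so changes of low genes are understated, and 2-fold was the threshold. With 1 library a side no test was possible. Depth was estimated as the total that brought values up to 1 RPKM of single-transcript genes nearest to whole reads (62.4% of 173 values in the day 7 control and 68.9% of 270 with Tet3 came within 0.15 of a read), with GENCODE vM21 lengths for 98.3% of symbols. Ratios of estimated reads were given exact 95% Clopper-Pearson intervals. Depth is thus approximate.

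The 49 gene lists hold 923 genes, 9 matched by an older symbol and 5 not matched. Members and lists were chosen with earlier results of these data known. The text names genes of DNA methylation, the list members with the largest differences and their defining regulators, the 15 largest differences each way at 5 RPKM or more, the 10 most alike and most opposed on both days, and the 10 most abundant genes; list members under that rank that are named to show a group's spread, and lists' exceptions, were chosen after their values were seen. A few genes that the rule selects are not reported here. Promoters came from RefSeq (GRCm38.p6). Alternatives were other pseudocounts, TPM scaling, centring and filters. Python 3.11.15, pandas 2.3.3 and SciPy 1.17.1 were used, and the scripts were tested on simulated data.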

Additional observations from a re-analysis of the deposited data

Results flagged for a closer look

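The day 4 and day 7 contrasts pointed in opposite directions, each by 2-fold or more, in 2 sets of genes: 42 were lower with Tet3 on day 4 and higher on day 7, and 12 had the reverse order. The difference between the days was not tested, since each contrast has 1 library a side. The primitive streak and nascent mesoderm list had a median of -1.88 on day 4 and 1.20 on day 7, each over the genes past the filter on that day. With no filter the day 7 median over all 24 members was 0.58.

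The 10 genes furthest apart follow. T had a log2 difference of -5.17 on day 4 and 1.31 on day 7, and Mixl1 -2.88 and 2.23. Fgf8, a growth factor of the streak, had -4.02 and 1.62, and Wnt8a, a Wnt ligand of the posterior embryo, -3.00 and 1.78. The activin antagonist Fst had -2.98 and 1.88. Pim2 had -1.33 and 3.52, and the cytokine gene Ltb -3.60 and 1.20. Col1a1 was the one in the other direction, with 1.07 on day 4 and -3.35 on day 7. Mir302d (-3.50 and 4.05) and Snora3 (-2.74 and 1.95) are short RNAs listed at 0 in 1 library of each day, and on day 7 they rest on an estimated 9 and 3 reads.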

How the results depend on the processing

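The counts of higher and lower genes stayed within 1.5 times of 829 and 1373 under pseudocounts of 0.1 (1000 and 1561) and 1 (626 and 1141), TPM scaling (938 and 1461), centring on the median (888 and 1292) and no filter (907 and 1471). They were 454 and 884 at 5 RPKM or more in either library, and 503 and 884 at 1 RPKM or more in both, where fewer genes were compared (8844 and 10746). The Tet3 difference ran from 1.14 to 1.25. Over these alternatives 21 of 332 list medians and 29 of 300 values of named genes moved by more than 1.5-fold, and none of those past 2-fold changed sign; 11 of the 21 came from dropping the filter. The median of all genes moved by at most 0.04. No paired analysis was possible because each condition has 1 library on each day, and for the same reason no library could be left out. Without the filter the median was nearer 0 in the neural progenitor (from 1.57 to 0.77), proneural (1.21 to 0.19), neuron structure (1.77 to 0.95), primitive streak (1.20 to 0.58) and germline (1.37 to 0.74) lists on the higher side. It was also nearer 0 in the smooth muscle (-1.57 to -0.59), visceral endoderm (-1.73 to -0.84), neural crest (-1.68 to -0.02), other matrix (-1.76 to -1.04) and Wnt ligand (-0.82 to 0.00) lists on the lower side. The dorsoventral neural tube list went from -0.13 to 0.56. At 1 RPKM or more in both libraries the endothelial median was -1.22 in place of -2.46, and that of visceral endoderm -0.83. The depth of 27100000 and 17300000 estimated reads limits the low genes.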

Other observations

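Counts for smaller groups are given here beside those over all genes, of which 6.89% were at least 2-fold higher and 11.4% lower on day 7. Of 10 metallothionein and oxidative stress genes, 5 exceeded the control by 2-fold or more and 0 fell short of it by as much. Their median was 1.06 on day 7 and 0.48 on day 4. Mt2, a metal-binding protein, was at 251 RPKM in the control and 879 with Tet3, Nqo1, a quinone reductase, at 4.72 against 13 RPKM and Hmox1, which degrades haem, at 47 against 108 RPKM. Within the Polycomb complexes, which keep developmental genes silent, the chromobox subunits parted: Cbx7 was at 10.6 against 36.9 RPKM (difference 1.76), and Cbx8 at 5.36 against 0.82 RPKM. The core subunits Ezh2, Suz12 and Eed were under 2-fold, at 67.2 against 79.5 RPKM, 29.8 against 37.8 RPKM and 31.8 against 51.6 RPKM. Over the list 1 of 19 was higher and 4 lower, and 2 passed only in the control.

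Hedgehog genes were lower in 4 of 11 cases, among them the co-receptors Gas1 (13.3 against 3.36 RPKM) and Boc (3.24 against 0.89 RPKM), and higher in 1. Notch genes split, with the ligand genes Dll3 and Jag2 (2.24 against 6.94 RPKM) higher and the vascular genes Hey2 (6.47 against 0.52 RPKM) and Dll4 (1.27 against 0.07 RPKM) lower. Of 15 immediate early genes 2 were lower, Jun (35.7 against 13 RPKM) and Myc (30.6 against 12 RPKM), and 1 was higher, Klf2 (8.06 against 25.3 RPKM). Stress of the unfolded protein and amino acid response showed 0 of 16 genes higher and 0 lower, and the p53 list 1 higher, Pmaip1 (39.9 against 101 RPKM), and 1 lower, Fas (1.69 against 0.32 RPKM), of 15. Other genes among the 15 largest positive differences were Nlrp1a (3.62 against 38.1 RPKM), an inflammasome sensor, Slc27a2 (0.7 against 8 RPKM), a fatty acid transporter, Foxi3 (1.06 against 10.5 RPKM), Ankrd35 (0.37 against 5.58 RPKM), Gng3 (2.78 against 21.8 RPKM), and Snord85 (0.56 against 10.6 RPKM), a short RNA with an estimated 13 reads in the Tet3-overexpressing library.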
